A study of Mus musculus with 6 samples.

Results

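Tropomyosins, transgelins, calponins and smooth-muscle actin are 10 genes of the actin cytoskeleton: Tpm1, Tpm2, Tpm3, Tpm4, Acta2, Tagln, Tagln2, Cnn1, Cnn2 and Cnn3. They were found as every probe set (a group of short probes that reads 1 transcript region) whose platform annotation names 1 of these genes alone, which gave 29 of the 45101 probe sets on the array. RNA came from 393P, a mouse lung cancer cell line grown in RPMI with fetal bovine serum. In 3 of 6 samples the cells held empty pcDNA (control vector), and in the other 3 a vector made them express Zeb1 stably and constitutively. Zeb1 is a zinc-finger repressor that drives epithelial cells toward a mesenchymal state. Each sample was read on 1 array. Both groups had been transfected with a lipid reagent. Whether a group came from 1 clone or from a pool of transfected cells is not stated in the labels. Nor do the labels state whether the 3 samples of a group were independent cultures. The p-values rest on how much arrays of the same group vary, which may be less than independent cultures would.

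Tropomyosins are coiled-coil proteins that lie along the actin filament and set which motors and severing proteins can reach it. Calponins and transgelins share an actin-binding calponin-homology fold and bundle or steady filaments, and Acta2 encodes the actin isoform of smooth muscle and myofibroblasts. In smooth muscle, Acta2, Tagln and Cnn1 serve as differentiation markers, and many genes of these families are driven by serum response factor (SRF) with its myocardin-related partners through a promoter element called the CArG box.

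The largest change belonged to Tpm2, which fell 17.1-fold to 26.7-fold in Zeb1 cells on its 2 brightest probe sets. Acta2 fell 3.69-fold, Cnn2 fell 2.71-fold and Tagln was at least 4.96-fold lower, while Cnn3 was not lower on any of its 6 probe sets. Values are log2 of the MAS5 signal, and signals under 4.45 (the 25th percentile of all values) were raised to that floor before testing. To be tested, a probe set had to reach the median of its array on 3 or more of the 6 arrays, and 24 of the 29 did. Of these 24, 14 fell, 3 rose and 7 were not called (17 called in all, against 46.1% of all tested probe sets) at an adjusted p of 0.05 (limma's moderated test, adjusted over all 20594 tested probe sets). Over all tested probe sets 21.6% fell and 24.5% rose. The members' 58.3% that fell lies above this background and their 3 rises do not. Members were chosen with earlier results of these data known. An excess of falls, here and in the shares below, therefore describes the chosen genes and is no independent result. Falls of at least 2-fold were called for 8 of the 24 (33.3%), against 6.17% of all tested probe sets. Probe sets of 1 gene read the same transcripts and are not independent. With 1 probe set per gene, the brightest, 6 of the 9 genes tested fell and 0 rose, against 24.1% and 26.4% of all 11893 genes tested; Tpm1, Tpm3 and Cnn3 were the 3 not called. Of the 24 tested probe sets, 2 (Tagln and 1449577_x_at of Tpm2) passed the filter through control arrays alone and so had to differ. Both are among the 8 with falls of at least 2-fold, and Tagln is among the 6 genes that fell. Of the other 22 probe sets, 12 fell, 6 of them by at least 2-fold. Control and Zeb1 arrays were fully apart for 16 of the 24 (66.7%), against 55.4% of all tested probe sets. The median log2 change was -0.32 over the 24 and 0.02 over all tested probe sets. In cultures, fewer cells that express a gene and less RNA per cell cannot be told apart.

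**Figure D1:**
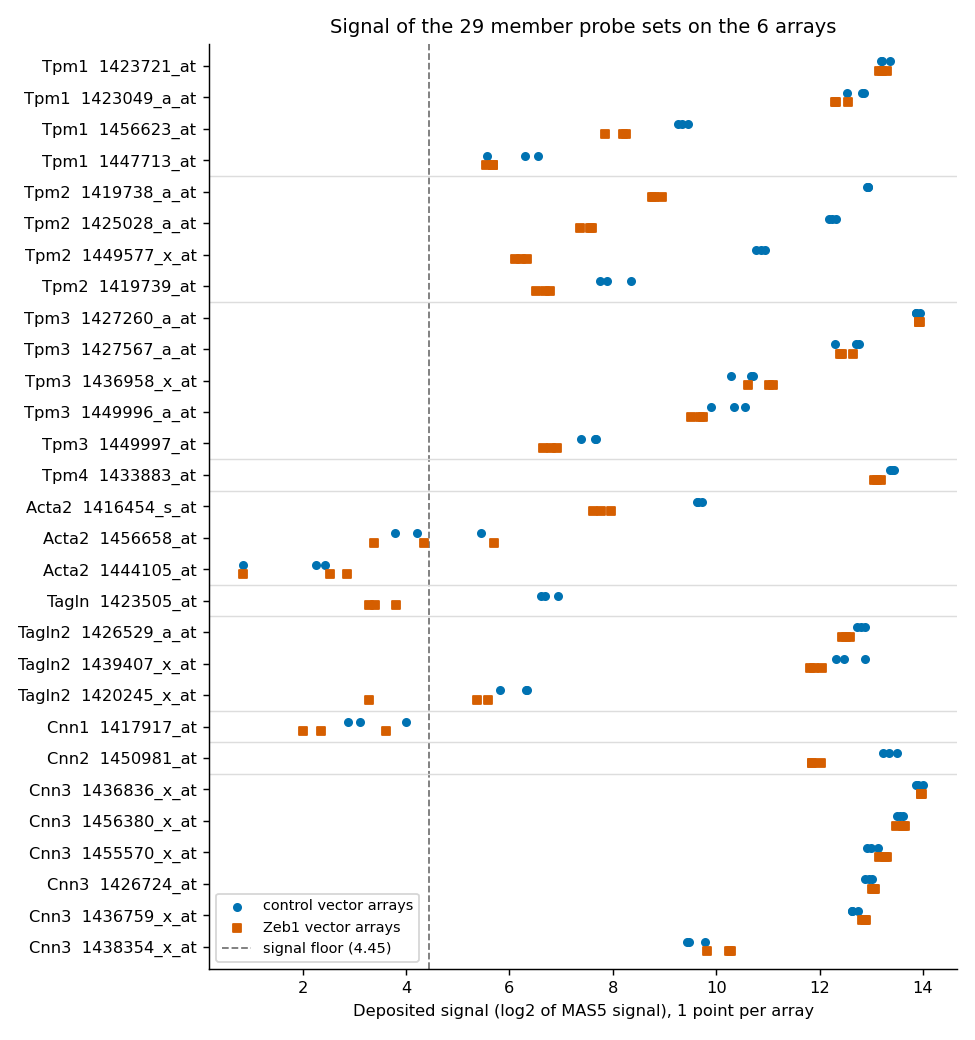
Deposited log2 signal (horizontal axis) of the 29 member probe sets, 1 point per array, with control vector arrays as blue circles and Zeb1 vector arrays as orange squares; the dashed line is the floor at 4.45. The groups stand far apart for 3 of the 4 Tpm2 probe sets, for Acta2 1416454_s_at, for Tagln and for Cnn2, and lie close together for Cnn3.

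The library labels were checked on Zeb1 itself. Its probe set 1418926_at went from 4.47 ± 0.0337 in control cells, with 2 of 3 arrays at the floor, to 9.69 ± 0.0964 in Zeb1 cells (SD, n = 3 each). The rise was at least 37.4-fold. Its other tested probe set, 1443005_at, rose by 1.17 on the log2 scale (limma adjusted p = 0.00895). The remaining Zeb1 probe sets missed the filter. Of these, 1420243_at had means of 4.45 in control and 4.79 in Zeb1 cells, and 1446127_at lay at the floor on every array. Across tested probe sets, which are not independent, the correlation was 0.979 to 0.984 between arrays within a group and 0.867 to 0.873 between groups. The cells carried bright simple-epithelial keratins in both groups (Krt8, Krt18 and Krt19, control means of 13.46 to 14.69). On the brightest probe set of each gene, 3 of the 5 epithelial markers were lower in Zeb1 cells. The log2 changes were -7.05 for Epcam, -4.01 for Cdh1 and -0.16 for Krt8, beside 0.03 for Krt18 and -0.04 for Krt19. The summed linear signal of the 5 was 89443 to 95379 on control and 57520 to 61742 on Zeb1 arrays. The lung epithelial markers Nkx2-1 and Scgb1a1 lay near the floor in both groups and Sftpc stayed near the array median. Of 9 markers of fibroblasts, pericytes and smooth muscle, 1 passed the filter (Cspg4, log2 change 1.28, limma adjusted p = 0.0779) and Pdgfrb was at the floor on all 6 arrays. Their summed linear signal was 322 to 669 on control and 456 to 507 on Zeb1 arrays, and the groups overlapped.

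Promoters from RefSeq (build GRCm38.p6) were matched for 9 of the 10 genes, in 10 entries, since Tpm3 has 2. The gene without an entry was Tagln. The 250 bases before the annotated start are shown for Tpm2, Acta2 and Cnn2, whose falls are the largest among members with an entry. Capitals mark the motifs found: the CArG box, which has 6 letters that are all A or T between CC and GG, or a CArG-like box, in which 1 of these 6 letters is G or C. Both patterns read the same on either strand, and a 10-base site counts under 1 of the 2 names only. The E-box CACCTG, a sequence Zeb1 is known to bind, was searched on both strands. Positions count back from the annotated start.
Tpm2 (chr4:43523555-43523804, minus strand): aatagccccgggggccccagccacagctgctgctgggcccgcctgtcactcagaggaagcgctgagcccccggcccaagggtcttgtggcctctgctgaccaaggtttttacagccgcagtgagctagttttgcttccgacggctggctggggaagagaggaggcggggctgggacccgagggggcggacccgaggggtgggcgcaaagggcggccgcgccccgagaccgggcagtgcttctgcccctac
Acta2 (chr19:34255374-34255623, minus strand): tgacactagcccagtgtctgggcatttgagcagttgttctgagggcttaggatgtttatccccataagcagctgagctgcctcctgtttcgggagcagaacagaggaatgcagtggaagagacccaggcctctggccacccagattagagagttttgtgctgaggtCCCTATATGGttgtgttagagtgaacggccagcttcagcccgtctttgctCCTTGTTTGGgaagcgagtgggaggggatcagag
Cnn2 (chr10:79988350-79988599, plus strand): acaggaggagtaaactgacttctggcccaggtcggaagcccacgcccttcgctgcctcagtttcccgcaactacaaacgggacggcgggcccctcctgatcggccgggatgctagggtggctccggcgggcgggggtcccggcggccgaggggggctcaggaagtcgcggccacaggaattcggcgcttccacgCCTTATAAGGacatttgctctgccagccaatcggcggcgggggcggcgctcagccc
The Acta2 window holds 2 CArG-like boxes, CCCTATATGG from 84 to 75 bases and CCTTGTTTGG from 34 to 25 bases before the start. The Cnn2 window holds the strict CArG box CCTTATAAGG, from 56 to 47 bases before the start, and the Tpm2 window holds neither kind. Each of the 2 Tpm3 entries holds a CArG-like box. The windows of Tpm1, Tpm4, Tagln2, Cnn1 and Cnn3 hold neither kind. A box of either kind was thus present in 4 of the 10 member windows, against 8.59% of all windows. A strict box was present in 1.47% of the 32851 promoter windows of the same length and a CArG-like box in 7.24%. CACCTG was found in 0 of the 10 member windows and in 17.2% of all windows. A match is only a description of the letters, and a window without one says nothing of sites elsewhere.

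Tpm2, the beta-tropomyosin gene, fell on all 4 of its probe sets. On the brightest, 1419738_a_at, the 3 control arrays read 12.92, 12.94 and 12.93 and the 3 Zeb1 arrays 8.76, 8.79 and 8.95. The groups were 4 log2 units apart with almost no spread within either, and the change was -4.10 (SE 0.0764, adjusted p = 8.63e-10). On 1425028_a_at control arrays read 12.24, 12.31 and 12.19 and Zeb1 arrays 7.56, 7.37 and 7.60, a change of -4.74 (SE 0.0945, adjusted p = 1.13e-09). Among all 20594 tested probe sets ordered from the largest fall, these were the 103rd and the 66th. The transcript stayed measurable in Zeb1 cells, since both probe sets lay above the medians of the Zeb1 arrays (6.26 to 6.44) on every array.

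The other Tpm2 probe sets differed in size but not in direction. On 1449577_x_at (control 10.94, 10.77 and 10.86; Zeb1 6.11, 6.34 and 6.22) the fall was at least 24.8-fold, since every Zeb1 array lay below its own median. On 1419739_at (control 7.75, 7.88 and 8.35; Zeb1 6.69, 6.52 and 6.78) it was 2.51-fold, a log2 change of -1.33 (SE 0.204, adjusted p = 0.000495). These 2 probe sets share 1 accession in the platform annotation with the brightest one, so 3 of the 4 were designed on the same sequence. Which Tpm2 isoform each reads is not known here. The suffix _x_at marks sets in which some probes may also bind other transcripts.

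Tpm1, the alpha-tropomyosin gene, gave probe sets that disagreed. The brightest, 1423721_at, read 13.36, 13.20 and 13.19 on control and 13.20, 13.15 and 13.30 on Zeb1 arrays. The groups overlapped, and the change was -0.03 (95% interval -0.18 to 0.11, adjusted p = 0.701). In contrast 1456623_at read 9.34, 9.26 and 9.45 on control and 8.20, 7.85 and 8.25 on Zeb1 arrays, a fall of 2.38-fold without overlap (log2 change -1.25, SE 0.136, adjusted p = 5.35e-05). Between them, 1423049_a_at read 12.86, 12.54 and 12.82 on control and 12.31, 12.30 and 12.56 on Zeb1 arrays. It fell by 0.35 on the log2 scale (adjusted p = 0.0173), but the groups overlapped and the call was lost under 6 of 14 alternatives (adjusted p over the 14 from 0.00323 to 0.125), among them leaving out control vector replicate 1 or 3 (-0.29 and -0.31) or Zeb1 vector replicate 1 or 2 (-0.31 and -0.30). The last, 1447713_at, missed the filter, with signals of 5.54 to 6.55. Tpm1 is spliced into many isoforms, and which of them each probe set reads is not known here.

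Taken within each array, the difference between the brightest probe sets of Tpm2 and Tpm1 was -0.32 ± 0.103 in control and -4.38 ± 0.0468 in Zeb1 cells (SD, n = 3 each). Its change of -4.06, free of any array-wide scaling, had an exact two-sided permutation p of 0.1 (0.125 adjusted over 5 such pairs), the smallest that 3 arrays against 3 allow. With the mean of all probe sets per gene the change was -3.17. So the paralogues changed unequally on these probe sets, by more than the spread between arrays.

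Tpm3, which encodes a tropomyosin of non-muscle cells and slow muscle, had 5 tested probe sets, of which 2 fell and 3 were not called. The brightest, 1427260_a_at, read 13.94, 13.87 and 13.87 on control and 13.93, 13.93 and 13.95 on Zeb1 arrays (change 0.05, 95% interval -0.05 to 0.15, adjusted p = 0.445). Both probe sets that fell were among the dimmer ones. On 1449996_a_at control arrays read 10.55, 9.90 and 10.34 and Zeb1 arrays 9.51, 9.69 and 9.74 (fall of 1.53-fold, adjusted p = 0.00853), a call missed when dim probe sets were kept in (adjusted p = 0.0825, with 0.000605 to 0.0825 over the alternatives). On 1449997_at control arrays read 7.39, 7.68 and 7.66 and Zeb1 arrays 6.92, 6.65 and 6.80 (fall of 1.73-fold, adjusted p = 0.00617). The others were 1427567_a_at, whose change was -0.10 (adjusted p = 0.544), or a called fall without control vector replicate 2 (-0.25, adjusted p = 0.035, with 0.035 to 0.963 over the alternatives), and 1436958_x_at, with a change of 0.36 (adjusted p = 0.0827), called as a rise without Zeb1 vector replicate 3 (0.51, adjusted p = 0.0173) and with the replicate block (adjusted p = 0.0057), with 0.0057 to 0.293 over the alternatives.

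Tpm4, a tropomyosin chiefly of non-muscle cells, had 1 probe set. It read 13.45, 13.41 and 13.37 on control and 13.11, 13.06 and 13.18 on Zeb1 arrays. The groups did not overlap, yet the fall was 1.23-fold (log2 change -0.29, SE 0.0522, adjusted p = 0.00125). Against the brightest Tpm3 probe set the within-array difference changed by -0.34 (exact permutation p = 0.1, 0.125 adjusted over the 5 pairs), and by -0.07 with the mean of all probe sets per gene.

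**Figure D2:**
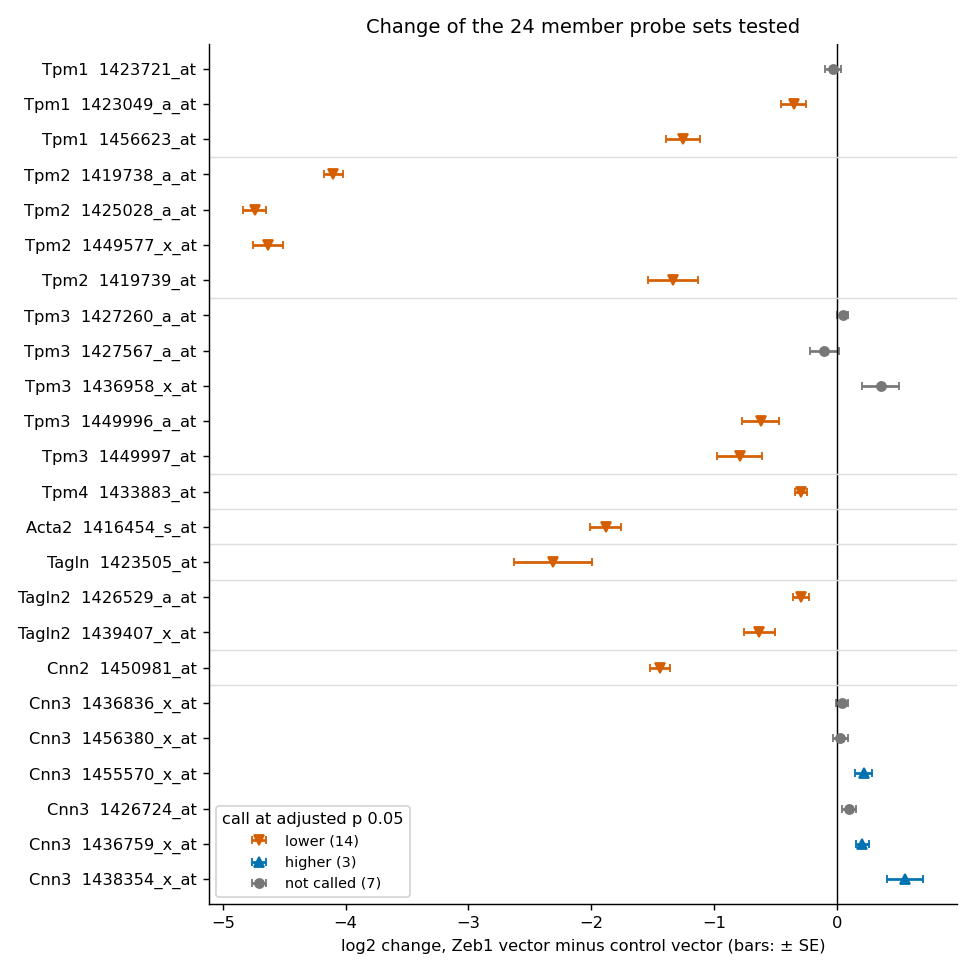
Change in log2 signal (horizontal axis, Zeb1 vector minus control vector) of the 24 tested member probe sets, with bars for limma's standard error and symbols for the call. Tpm2 stands apart at -4.10 to -4.74 on 3 probe sets, and the Cnn3 probe sets lie between 0.03 and 0.56.

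Acta2, the smooth-muscle actin gene, was measurable on 1 of its 3 probe sets. On 1416454_s_at control arrays read 9.63, 9.65 and 9.72 and Zeb1 arrays 7.61, 7.97 and 7.78. Every Zeb1 array lay below every control array, and the fall was 3.69-fold (log2 change -1.88, SE 0.126, adjusted p = 2.05e-06). The suffix _s_at marks sets whose probes match transcripts of more than 1 gene, although the annotation names Acta2 alone; the skeletal actin gene Acta1, which has a probe set of its own, was also lower, and its part in the Acta2 signal was not tested. The other Acta2 probe sets missed the filter: 1444105_at was below the floor on all 6 arrays, and 1456658_at read 3.79 to 5.45 on control and 3.38 to 5.71 on Zeb1 arrays.

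The cytoplasmic actin Actb had a change of -0.02 (adjusted p = 0.715), and the within-array difference of Acta2 and Actb went from -4.73 ± 0.093 to -6.59 ± 0.135 (SD, n = 3 each). The change of -1.86 had an exact permutation p of 0.1 (0.125 adjusted over the 5 pairs). With the mean of all probe sets per gene, which takes in the 2 dim Acta2 sets, it was -0.64.

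Tagln encodes transgelin (SM22), an actin-bundling protein of smooth muscle, and was low even in control cells. Control arrays read 6.95, 6.69 and 6.62, just above their medians of 6.15 to 6.42. Zeb1 arrays read 3.28, 3.81 and 3.41, all below the floor. The gene was therefore at least 4.96-fold lower (log2 change -2.31, SE 0.316), and this bound moves with the floor: raised to the 50th percentile, the floor gave a change of -0.43, and without any floor it was -3.26.

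Its paralogue Tagln2, which is widely expressed outside muscle, fell on both tested probe sets. On 1426529_a_at it read 12.80, 12.73 and 12.88 on control and 12.44, 12.59 and 12.52 on Zeb1 arrays, a fall of 1.22-fold (log2 change -0.29, SE 0.0632, adjusted p = 0.00389). On 1439407_x_at it read 12.31, 12.87 and 12.48 on control and 11.90, 11.81 and 12.05 on Zeb1 arrays, a fall of 1.55-fold (adjusted p = 0.0026) that was not called when dim probe sets were kept in (adjusted p = 0.0537, with 0.000894 to 0.0537 over the alternatives). The dim probe set 1420245_x_at missed the filter, with 5.82 to 6.34 on control and 3.28 to 5.58 on Zeb1 arrays. The within-array difference of Tagln and Tagln2 changed by -2.02 (exact permutation p = 0.1, 0.125 adjusted over the 5 pairs), or by -0.14 once the floor was raised to the 50th percentile, so its size rests on the floor.

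Of the 3 calponins, Cnn2 and Cnn3 could be tested. Cnn1, the smooth-muscle calponin, had 1 probe set, which read 2.87 to 4.01 on control and 2.00 to 3.62 on Zeb1 arrays, below the floor on all 6, so no change could be measured. Cnn2, a calponin found in non-muscle cells too, read 13.50, 13.23 and 13.34 on control and 11.86, 11.86 and 12.03 on Zeb1 arrays. The groups were far apart, and the fall was 2.71-fold (log2 change -1.44, SE 0.0795, adjusted p = 5.56e-07). This call held under all 15 alternatives, with changes of -1.50 to -1.37.

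Cnn3, the acidic calponin, was the only tested member with no probe set called lower. Tpm1 and Tpm3 too were not called on their brightest probe sets. Of the 6 Cnn3 probe sets 3 rose and 3 were not called, with log2 changes of 0.03 to 0.56. The brightest, 1436836_x_at, read 14.01, 13.87 and 13.90 on control and 13.97, 13.96 and 13.98 on Zeb1 arrays (change 0.04, 95% interval -0.07 to 0.15, adjusted p = 0.503). The dimmest, 1438354_x_at, read 9.43, 9.47 and 9.79 on control and 10.24, 9.83 and 10.29 on Zeb1 arrays. The groups did not overlap, and the rise was 1.47-fold (log2 change 0.56, SE 0.147, adjusted p = 0.0111). The other rises were 1.16-fold on 1455570_x_at (adjusted p = 0.0274) and 1.15-fold on 1436759_x_at (adjusted p = 0.0128). All 3 calls depend on settings: with no filter the adjusted p of 1438354_x_at was 0.088, and with each array centred on its median that of the other 2 was 0.15 and 0.0913. Over all alternatives these 3 ranged from 0.00271 to 0.088, 0.0096 to 0.15 and 0.00748 to 0.0913. The call of 1455570_x_at was also lost without control vector replicate 2 or 3 or Zeb1 vector replicate 1 or 3 (changes of 0.21, 0.17, 0.18 and 0.21), and that of 1436759_x_at without Zeb1 vector replicate 2 (0.19). Of the 6 probe sets, 5 carry the suffix _x_at.

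**Figure D3:**
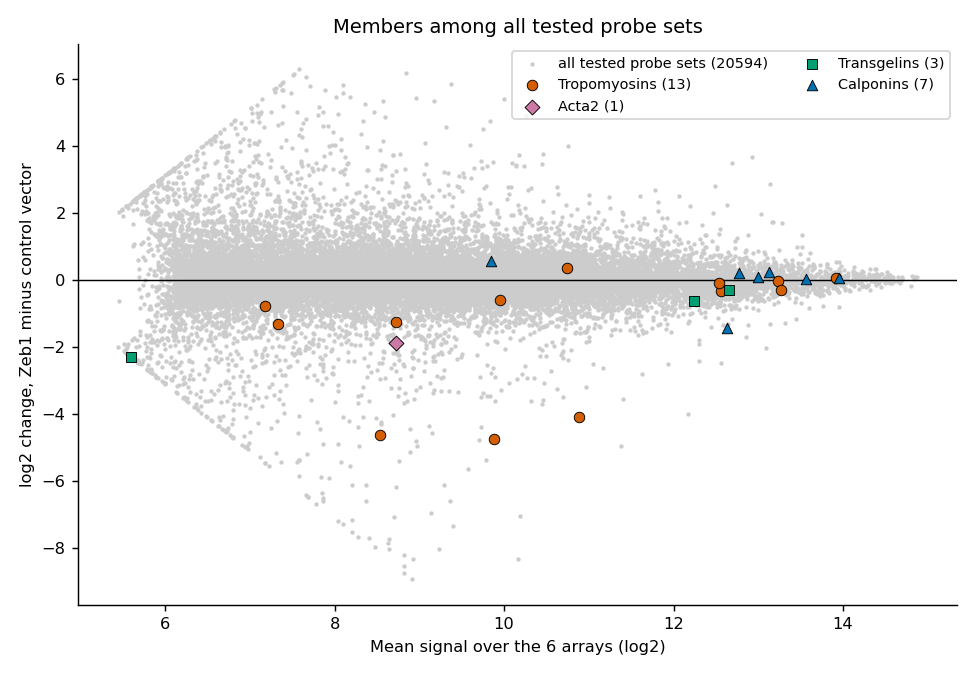
Change in log2 signal (vertical axis, Zeb1 vector minus control vector) against mean log2 signal over the 6 arrays (horizontal axis) for all 20594 tested probe sets in grey, with the 24 tested members in colour by family. Tpm2 lies among the larger falls at 3 of its probe sets, and the brightest tropomyosin and calponin probe sets lie close to 0.

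Genes that work with these proteins were taken from 4 lists with 57 genes in all, each gene by its brightest tested probe set. Of the 40 genes tested, 17 fell and 6 rose (42.5% and 15%, against 24.1% and 26.4% of all 11893 genes tested), with a median log2 change of -0.24 beside 0.01 over all tested genes. Fhl1 alone among the 40 passed the filter through arrays of 1 group only and so had to differ; of the other 39, 16 fell and 6 rose. The lists were chosen with earlier results of these data known.

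Among the other actins, the abundant cytoplasmic genes Actb and Actg1 had changes of -0.02 (adjusted p = 0.715) and 0.10 (adjusted p = 0.0911), and 1 of 4 tested genes fell. That gene was the skeletal actin Acta1, which went from 8.44 ± 0.173 to 6.18 ± 0.706 and was at least 4.79-fold lower (SD, n = 3 each, limma adjusted p = 0.000186). The cardiac actin Actc1 had a change of -0.03 (adjusted p = 0.958). The list's median was -0.03. With 1 of 4 genes lower, the list lay close to the 24.1% of all genes tested that fell. In the list 0 genes rose, against 26.4% of all genes tested.

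Of 16 smooth-muscle contractile partners only 6 passed the filter, and the smooth-muscle myosin Myh11, desmin and leiomodin Lmod1 were among the 10 not tested. Myosin light chain kinase, Mylk, rose 3.73-fold (7.25 ± 0.419 to 9.15 ± 0.184, SD, n = 3 each, limma adjusted p = 3.45e-05), and by 2.17 on the log2 scale on its other probe set. Caldesmon, Cald1, which binds actin and tropomyosin, fell by 0.21 (adjusted p = 0.0455), while its other 3 tested probe sets had changes of -0.65 to 0.54. This call was lost under 9 of 15 alternatives, among them leaving out control vector replicate 1, 2 or 3 (-0.18, -0.23 and -0.22) or Zeb1 vector replicate 1 or 2 (-0.20 and -0.14), with adjusted p from 0.00337 to 0.278 over the 15. Of the 6 tested, 1 thus fell and 1 rose (16.7% each, against 24.1% and 26.4% of all genes tested). The other 4 were not called, and the median was -0.15.

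Of 15 thin-filament binders tested 10 fell and 2 rose, with a median of -0.37. These shares of 66.7% and 13.3% compare with 24.1% and 26.4% of all genes tested. Over the alternatives the falls in this list ranged from 8 to 11 and the rises from 1 to 2. Among the falls, Tmod3 had a change of -0.37, but -0.93 to 0.92 on its other 3 tested probe sets. The largest falls were those of Pdlim2, a PDZ-LIM adaptor of actin fibres (6.23-fold, 10.25 ± 0.0849 to 7.61 ± 0.0365, SD, n = 3 each, limma adjusted p = 2.36e-08), and of the focal adhesion protein zyxin, Zyx (2.37-fold, 10.86 ± 0.103 to 9.61 ± 0.11, adjusted p = 2.13e-06). The size for Zyx depends on the probe set, with a log2 change of -1.24 on this one and -0.69 on its other tested one. The 2 that rose were the adaptor Pdlim5, by 1.50 (adjusted p = 5.01e-07) and by 1.03 to 1.55 on its other 6 probe sets, and cortactin, Cttn, by 0.17 (adjusted p = 0.0286), with changes of 0.15 to 0.20 on its other 3 tested probe sets. The call of Cttn was lost under 8 of 15 alternatives, among them median centring (0.11) and leaving out control vector replicate 2 or 3 (0.13 and 0.15) or Zeb1 vector replicate 1 or 3 (0.16 each), with adjusted p from 0.00264 to 0.262 over the 15.

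In the list of SRF, its partners and cytoskeletal targets, 5 of 15 tested genes fell and 3 rose, with a median of -0.21. The share that fell was 33.3%, while over all genes tested 24.1% fell and 26.4% rose. Without Fhl1, 4 of the other 14 fell. The LIM protein Csrp1 fell 1.97-fold (log2 change -0.98, limma adjusted p = 2.21e-05), with a change of -0.85 on its other tested probe set. Fhl1, a LIM-only protein of muscle, read 9.52 ± 0.15 in control and 5.93 ± 0.33 in Zeb1 cells (SD, n = 3 each). It was at least 12.0-fold lower, but it passed the filter through control arrays alone, so no test is given. Srf itself fell 1.90-fold (10.21 ± 0.0772 to 9.28 ± 0.0689, SD, n = 3 each, limma adjusted p = 1.47e-05), with a change of -0.79 on its other tested probe set. Its coactivator Mrtfa had a change of -0.05 (adjusted p = 0.754). The coactivator Mrtfb had a change of 0.04 on its brightest probe set (adjusted p = 0.731) and 0.41 on its other tested one, and the smooth-muscle coactivator Myocd was not tested. Srf was named after its value was seen. The largest rises were those of the focal adhesion adaptor Tgfb1i1 (at least 3.00-fold, adjusted p = 0.000244) and of Ckap4 (1.40-fold, a log2 change of 0.49, adjusted p = 2.55e-05, with 0.33 to 0.65 on its other 3 tested probe sets).

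**Figure D4:**
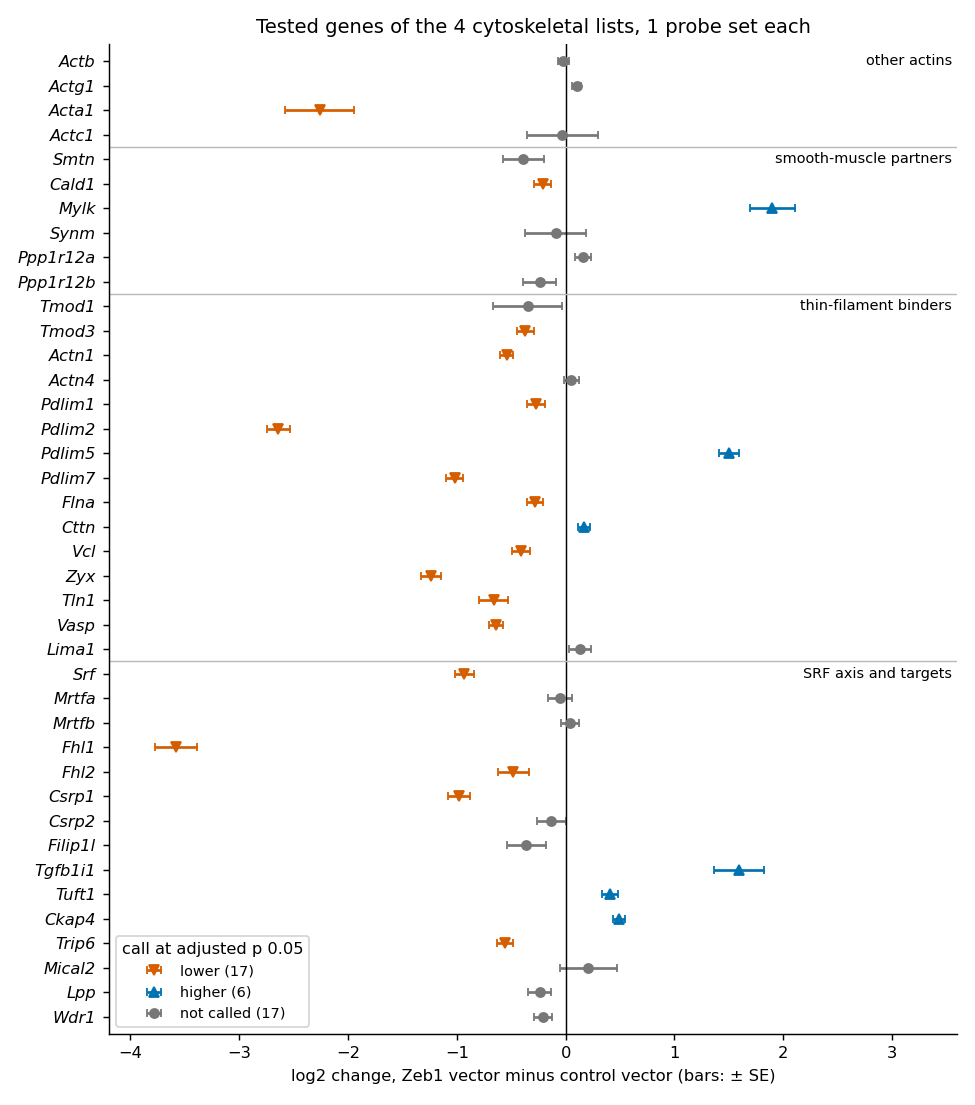
Change in log2 signal (horizontal axis, Zeb1 vector minus control vector, bars for limma's standard error) of the 40 tested genes of the 4 lists, with 1 probe set per gene and symbols for the call. Falls lead among thin-filament binders, 10 of 15, while Mylk, Pdlim5 and Tgfb1i1 are the largest rises.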

How the data were processed

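The deposited table held log2 signals for 45101 probe sets on 6 Affymetrix arrays, made by the authors with MAS5, per the submitters' processing notes (version not given in the sources used here). On the linear scale 100% of signals were multiples of 0.1 (tolerance 0.01 multiples), and the mean with 2% trimmed at each end was 500 on each array, so each array carried the same scale. MAS5 summarises each array on its own, and low signals are noisy. The 2 missing values (control vector replicate 2) were set to the floor.

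Probe sets with 1 gene symbol (34945) were kept; 932 had several and 9224 none here or were controls. Entrez identifiers were looked up in RefSeq (GRCm38.p6), and 0 symbols changed. Values were floored at 4.45 and fitted with limma 3.58.1 in R 4.3.3 (lmFit, eBayes with intensity trend, jsonlite 2.0.0), with Benjamini-Hochberg adjustment; adjusted p-values are over the 20594 probe sets, or over 11893 genes for the partner lists and chromosome neighbours. Those of alternatives are over the features each one tested, and those of permutation tests over the 5 pairs. The SE is limma's moderated one. A fold is written "at least" where an array lay at the floor or the lower group mean lay below 6.32, the pooled 50th percentile. On simulated data of the same size, 67.5% of changes of 1 on the log2 scale and 5.5% of changes of 0.5 were recovered. Only 200 of the 20594 simulated probe sets were changed, whereas 46.1% were called in the data. The recovery rates therefore need not hold for these data. The number of arrays limits the precision (median SE 0.147).

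Members and lists were chosen with earlier results of these data known. Named were all member probe sets, Zeb1, the 2 largest called falls and rises per list, and the 3 genes most like Acta2. Actins, Srf and its partners were named besides. Alternatives were other floors, filters, scalings, no intensity trend, a replicate block, 1 probe set per gene and leaving out each array.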

Additional observations from a re-analysis of the deposited data

How the results depend on the processing

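The 14 member probe sets called lower ranged from 11 with no filter on dim probe sets to 15, and from 13 to 15 when 1 array was left out; with 1 probe set per gene 6 were called. The 3 called higher became 1 with no filter, with median centring and with no intensity trend, 0 with 1 probe set per gene, and 2 to 3 when 1 array was left out. The cause was not tested, except that 1 probe set per gene counts fewer features. Of 344 values of single member probe sets under alternatives, 322 kept their side of the threshold, 19 lost the call, 3 gained it and 0 called values changed sign (uncalled changes near 0 did in part). Same-numbered arrays did not deviate together (correlations 0.02, 0.01 and -0.04), which gives no sign of a pairing by number but cannot exclude one. With the replicate block 14 were called lower and 4 higher. For the partner lists the 17 falls ranged from 13 to 18 and the 6 rises from 5 to 7. The change in the within-array difference of Tagln and Tagln2 was -0.14 under the higher floor (50th percentile), -2.97 with no floor, Tagln lying below the floor in Zeb1 cells, and -1.66 with the mean of all probe sets. That of Cnn1 and Cnn3 was -0.04 (exact permutation p = 0.4), -0.72 with no floor, where Cnn1 lay below the floor used otherwise on every array, and -0.19 with the mean. With the mean of all probe sets the changes were -3.17 for Tpm2 and Tpm1, -0.07 for Tpm4 and Tpm3 and -0.64 for Acta2 and Actb. When 1 array was left out, the 5 changes ranged from -2.12 to -1.92 for Tagln and Tagln2, -0.08 to -0.02 for Cnn1 and Cnn3, -4.12 to -4.03 for Tpm2 and Tpm1, -0.36 to -0.31 for Tpm4 and Tpm3 and -1.93 to -1.80 for Acta2 and Actb. Signals near the floor (Cnn1, Tagln, 2 Acta2 probe sets) carry no measurable change below it.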

Other observations

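Over the 6 arrays, the 3 genes whose centred log2 profile lay closest to that of Acta2, among 11892 others, were Slc45a3 (root-mean-square difference 0.0713), Cyb561 (0.0784) and Celsr1 (0.0818), with log2 changes of -1.81, -1.93 and -1.97. With 2 groups of 3 arrays, any gene with a fall of that size and little spread has such a profile.

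On the chromosome, Tpm2 lies beside Tln1, the gene of the integrin-linking protein talin, in the RefSeq gene order. Tln1 fell by 0.66 on the log2 scale (limma adjusted p = 0.00188), against a change of -4.10 for the brightest Tpm2 probe set. Acta2 lies beside Stambpl1, which rose by 0.19 (limma adjusted p = 0.0408). The tested neighbours of Cnn2 were Tmem259, with a change of 0.00 (limma adjusted p = 0.999), and the lipid transporter gene Abca7, which rose by 1.19 (adjusted p = 0.00143). Beside Tagln2 lies Igsf9, with a change of -5.05, and beside Cnn3 lies Slc44a3, with a change of -2.96, against -0.29 and 0.04 for the brightest probe sets of Tagln2 and Cnn3. Both neighbours passed the filter on dim signals through control arrays alone, so no test is given for them. These neighbours were named after their values were seen.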
